A study of Mus musculus with 23 samples.

Results

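Wide peaks of trimethylated lysine 9 on histone H3 (H3K9me3) were taken from the merged H3K9me3 peak list of CD4+ naive T cells of the mouse as the intervals of 2000 bp or more on chromosomes 1 to 19 and X. The members were thus chosen by the width of the peak, a measured value, and numbered 723 among 16161 H3K9me3 peaks there. The remaining 15438 peaks, all under 2000 bp, are called narrow peaks here. The list came from CUT&Tag, in which an antibody guides a transposase that cuts and tags the DNA beside its target, on cells of spleen and lymph nodes (labelled pLN). Its labels name 4 samples: 2 from WT mice and 2 from mice with the genotype DDX55 KO, without further treatment. The lists it was compared with were those of DDX55, a DEAD-box RNA helicase (2 WT and 2 DDX55 KO samples), of RNA polymerase II (2 WT and 2 DDX55 KO samples) and of R-loops. R-loops were profiled by S9.6, an antibody to RNA paired with DNA, in 8 samples, of which 4 (2 WT and 2 DDX55 KO) had RNase H and 4 (2 WT and 2 DDX55 KO) had none. The knockout allele, the cells it was deleted in, and the age and sex of the mice are not given in the labels. Each list holds positions only, with WT and knockout samples merged, so no value per sample, no replicate spread and no depth stood behind any number below, and no genotype effect was measured.

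H3K9me3 is written by methyltransferases such as SETDB1 and SUV39H1 and is read by heterochromatin protein 1, and it marks silent chromatin. In mammals it lies on satellite repeats beside the centromeres, on endogenous retroviruses and on repeated gene families. Clusters of KRAB zinc finger genes carry it as well, and many of their proteins recruit the KAP1 and SETDB1 complex to retroviral sequence. In T cells SETDB1 and SUV39H1 are known for keeping the genes of other lineages silent.

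Windows at annotated gene starts that met a wide peak were counted. No share was computed for windows placed elsewhere, so the count does not show whether wide peaks avoid gene starts. Of 32619 start windows of 300 bases (250 before the start to 50 after it, RefSeq, GRCm38.p6), 31 shared at least 1 base with a wide peak, which is 0.095%. They belonged to 17 protein-coding genes and 6 long noncoding RNA genes. As examples 8 of these genes are shown, picked after their values were seen: 6 from places the results below turn on and 2 of the 3 whose start also met a DDX55 peak. The other of these 3 was Gm40468 on chromosome 8, with 247 bases shared. The sequences run 5′ to 3′ on the strand of the gene, with each CG dinucleotide, the target of DNA methylation, in capitals. The starts of Gm13212 (chr4:145584950-145585249, plus strand), Zfp981 (chr4:146514670-146514969, plus) and Rex2 (chr4:147021600-147021899, plus) lie in the stretch of chromosome 4 that holds its zinc finger gene cluster. A wide peak shared all 300 bases of the Zfp981 window, but only 38 of the Gm13212 window and 55 of the Rex2 window.
Gm13212: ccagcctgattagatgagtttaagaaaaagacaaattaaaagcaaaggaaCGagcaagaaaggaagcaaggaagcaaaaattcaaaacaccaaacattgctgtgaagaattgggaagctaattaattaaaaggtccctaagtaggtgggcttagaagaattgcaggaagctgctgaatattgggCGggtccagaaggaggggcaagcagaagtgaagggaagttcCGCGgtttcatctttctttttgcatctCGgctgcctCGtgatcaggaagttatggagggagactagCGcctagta
Zfp981: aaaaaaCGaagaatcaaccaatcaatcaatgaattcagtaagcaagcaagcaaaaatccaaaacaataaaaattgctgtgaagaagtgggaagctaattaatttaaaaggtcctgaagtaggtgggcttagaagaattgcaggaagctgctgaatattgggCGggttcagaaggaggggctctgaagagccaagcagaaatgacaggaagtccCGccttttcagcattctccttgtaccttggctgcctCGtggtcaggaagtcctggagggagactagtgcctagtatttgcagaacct
Rex2: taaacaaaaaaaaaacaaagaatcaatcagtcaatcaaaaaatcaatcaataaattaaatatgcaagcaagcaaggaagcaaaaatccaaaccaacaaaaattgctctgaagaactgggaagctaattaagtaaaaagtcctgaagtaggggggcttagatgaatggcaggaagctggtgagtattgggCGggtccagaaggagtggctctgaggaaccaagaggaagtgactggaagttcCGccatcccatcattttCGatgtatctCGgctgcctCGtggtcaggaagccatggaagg
The start of C130026I21Rik (chr1:85270517-85270816, minus strand) lies in the cluster of Sp100 family genes, which encode nuclear body proteins, and the start of Speer4c (chr5:15714222-15714521, minus) in a cluster of Speer genes. Duxf3 (start window chr10:58233040-58233339, minus) belongs to the double homeobox genes, a family known to form tandem arrays.
C130026I21Rik: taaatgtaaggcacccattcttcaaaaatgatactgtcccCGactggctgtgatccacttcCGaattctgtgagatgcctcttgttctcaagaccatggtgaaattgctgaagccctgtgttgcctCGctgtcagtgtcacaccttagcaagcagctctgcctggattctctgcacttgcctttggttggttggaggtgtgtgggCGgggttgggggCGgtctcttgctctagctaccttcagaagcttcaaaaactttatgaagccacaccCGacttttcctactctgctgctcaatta
Speer4c: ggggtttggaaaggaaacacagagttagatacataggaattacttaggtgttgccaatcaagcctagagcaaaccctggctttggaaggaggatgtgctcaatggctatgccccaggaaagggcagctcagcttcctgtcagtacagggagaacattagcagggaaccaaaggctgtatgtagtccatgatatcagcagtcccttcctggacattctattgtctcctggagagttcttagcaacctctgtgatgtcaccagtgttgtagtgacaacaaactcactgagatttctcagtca
Duxf3: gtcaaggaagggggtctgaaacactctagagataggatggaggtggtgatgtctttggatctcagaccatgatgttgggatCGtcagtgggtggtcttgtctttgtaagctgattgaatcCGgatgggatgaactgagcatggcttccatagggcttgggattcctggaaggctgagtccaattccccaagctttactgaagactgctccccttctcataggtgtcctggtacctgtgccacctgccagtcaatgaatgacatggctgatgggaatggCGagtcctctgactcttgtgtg
The start window of 4931408C20Rik (chr1:26687411-26687710, minus strand) was covered over its whole length by a wide H3K9me3 peak and by a DDX55 peak. That of Gm51571 (chr8:55114679-55114978, plus) lay wholly in a wide peak and shared 198 bases with a DDX55 peak.
4931408C20Rik: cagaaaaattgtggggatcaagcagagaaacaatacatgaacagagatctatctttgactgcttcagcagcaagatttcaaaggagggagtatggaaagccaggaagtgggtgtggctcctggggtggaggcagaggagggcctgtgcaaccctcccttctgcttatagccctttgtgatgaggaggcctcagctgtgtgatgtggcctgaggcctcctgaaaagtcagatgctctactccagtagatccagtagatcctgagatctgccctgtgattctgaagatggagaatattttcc
Gm51571: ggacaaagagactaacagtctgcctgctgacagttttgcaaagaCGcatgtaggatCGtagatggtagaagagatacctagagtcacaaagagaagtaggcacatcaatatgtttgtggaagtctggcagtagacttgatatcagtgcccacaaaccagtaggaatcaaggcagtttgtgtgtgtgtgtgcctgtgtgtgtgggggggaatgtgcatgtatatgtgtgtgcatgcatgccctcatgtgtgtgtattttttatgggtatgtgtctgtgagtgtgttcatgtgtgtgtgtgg

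CG dinucleotides were fewer in these windows than in gene starts at large. The 31 windows in wide peaks held a median of 2 CG dinucleotides (range 0 to 29) and a median GC content of 44.0%. All 32619 windows held a median of 7 CG and 53.0% GC, and the 110 windows that met a narrow peak and no wide one held 6 CG and 50.7% GC. At most 5 CG were present in 80.6% of windows in wide peaks, against 43.2% of all windows. The exception at the top, with 29 CG, was Gm38538 on chromosome 12. Of the 31 windows, 9 are overlapping windows of alternative starts of Mup-ps16, so the windows are not independent. Without Mup-ps16 the other 22 windows held a median of 3.5 CG and 46.3% GC, and 72.7% of them held at most 5 CG. The TATA box letters TATAAA, searched on both strands, were in 5 of the 31 windows (16.1%) and in 13.7% of all windows, and 3 of the 5 were Mup-ps16 windows.

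The starts from the chromosome 4 cluster were related in sequence. Over their 300-base windows Gm13212 and Zfp981 were 72.8% identical in a global alignment, Zfp981 and Rex2 72.0%, and Gm13212 and Rex2 69.7%. The major urinary protein genes Mup17 and Mup19, also on chromosome 4, were 94.5% identical at their starts. The median over 429 pairs of windows from different genes was 49.8%. How reads were placed among related copies was not tested.

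Wide peaks made up 4.47% of H3K9me3 peaks and 15.0% of the sequence those peaks covered (1.95 of 13.1 Mb). Their median width was 2464 bp (quartiles 2188.5 and 2876 bp), and that of narrow peaks 586 bp. These widths are the rule itself and are given as a description. From 2000 to under 2500 bp there were 389 peaks, to under 3000 bp 183 more, to under 4000 bp 110, to under 5000 bp 26, and 15 reached 5000 bp. Nothing separated members from non-members at the threshold. Just inside were peaks of 2000 bp (chromosome 2, nearest protein-coding gene Lrrc4c), 2001 bp (chromosome 18, Cdh2), 2002 bp (chromosome 2, Dok5) and 2003 bp (chromosome 5, Tecrl). Just outside were 2 peaks 1 bp short of 2000 bp (chromosome 12, over 9030624G23Rik, and chromosome 14, nearest Pcdh20), 1 of 1998 bp (chromosome 2, in Galnt13) and 1 of 1997 bp (chromosome 7, nearest Vmn2r45).

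Of the 10 widest peaks, 2 overlapped a protein-coding gene. The longest, 13766 bp on chromosome 9 (3012237 to 3026002), lay at the start of the assembled sequence, 309 kb from the nearest protein-coding gene, Alkbh8. The next were 8872 bp on chromosome 16 (3231588 to 3240459) and 7372 bp on chromosome 10 (3109643 to 3117014), also in the first 500 kb of assembled sequence. A peak of 7155 bp (chromosome 1, 85245033 to 85252187) lay in C130026I21Rik and Gm38510 of the Sp100 cluster. A peak of 6957 bp (chromosome 10, 58221448 to 58228404) lay over LOC100504180 beside Duxf3. The next 5 were 6862 bp over the noncoding gene Gm16090 on chromosome 18, 6001 bp in Snhg14 on chromosome 7, 5965 bp over the pseudogene Gm13238 on chromosome 4, 5879 bp over the pseudogene Rpl19-ps1 on chromosome 1 and 5672 bp over Rn18s-rs5 on chromosome 17. Snhg14 is the long noncoding host of the imprinted Snord116 small nucleolar RNAs, and Rn18s-rs5 is annotated as a pseudogene related to 18S ribosomal RNA.

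Chromosome 4 held the most wide peaks, 101 of 723 (14.0%), followed by chromosomes 1 and 7 with 71 each, chromosome 12 with 62 and chromosome 5 with 54. Chromosome 19 had 3. As a share of the H3K9me3 peaks of the chromosome, wide peaks were most frequent on chromosome 17, with 47 of 559 or 8.41% (95% exact interval 6.24 to 11.0). Chromosome 4 followed with 7.17% (5.88 to 8.65), chromosome 12 with 6.84% (5.28 to 8.68) and chromosome 7 with 5.87% (4.61 to 7.35). The intervals of these chromosomes overlapped each other and lay above the share of 4.47% over all chromosomes. Chromosome 8, with 19 of 919 peaks (2.07%, 1.25 to 3.21), chromosome X, with 19 of 779 (2.44%, 1.47 to 3.78), and chromosome 6 (2.94%, 1.93 to 4.28) lay below it. Per Mb of span the range was from 0.0515 on chromosome 19 to 0.646 on chromosome 4. The intervals here and below are Clopper-Pearson intervals that cover counting error only, and neighbouring peaks are not independent.

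**Figure D1:**
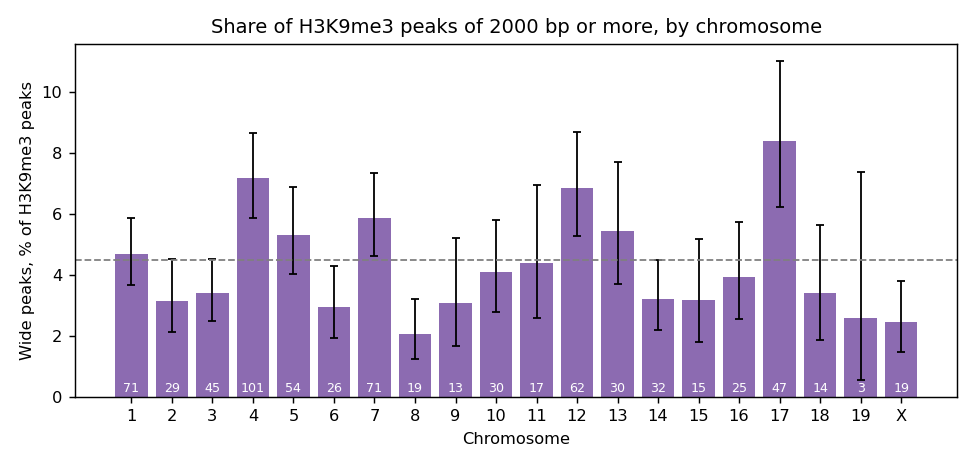
Share of H3K9me3 peaks that were 2000 bp or more (y axis, %) on each chromosome (x axis), with exact 95% intervals as error bars, the number of wide peaks written in each bar and the share over all chromosomes, 4.47%, as a dashed line. Chromosomes 17, 4, 12 and 7 stand above the line with their whole interval, and chromosomes 8, X and 6 below it.

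Wide peaks were clustered. The 10 windows of 1 Mb with most of them held 152 of 723 (21.0%), while the same windows held 481 of 15438 narrow peaks (3.12%). At the other end, 282 windows held 1 wide peak each, among 398 windows with any. The gap from a wide peak to the nearest other H3K9me3 peak had a median of 7.17 kb, against 17.0 kb for narrow peaks, and was at most 5 kb for 29.2% of wide peaks (25.9 to 32.6) and 13.5% of narrow peaks (13.0 to 14.0). Gaps of at most 1 kb ran the other way, with 9 wide peaks (1.24%) and 301 narrow peaks (1.95%). Since the 10 windows were picked for their wide peaks, the first of these comparisons is a description.

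The fullest window, on chromosome 4 from 147000001 to 148000000, held 27 wide and 68 narrow peaks. Its wide peaks covered 90.7 kb, and 10 of its 16 protein-coding genes are zinc finger genes, among them Rex2, Zfp978, Zfp982 and Zfp991. The adjoining windows of chromosome 4 from 146000001 and from 145000001 held 18 and 13 wide peaks, and all 6 protein-coding genes of the former are zinc finger genes. The second window, on chromosome 1 from 85000001, held 25 wide peaks over 82.9 kb, with Sp100, Sp110, Sp140 and relatives of these genes such as C130026I21Rik, A530032D15Rik and Gm7592. On chromosome 7 the window from 59000001 held 14, with Snrpn, Snurf and Ube3a as its protein-coding genes. On chromosome 17 the window from 13000001 also held 14, with Tcp10b, Tcp10c, Tcte2, Smok2a and Smok2b among its 10 genes. The other 4 windows held 13 (chromosome 12 from 22000001), 10 (chromosome 7 from 15000001, with the homeobox genes Obox1, Obox2, Obox3, Obox5 and Obox6), 9 (chromosome 5 from 15000001, with Speer4c and Speer4d) and 9 (chromosome 7 from 22000001, with vomeronasal receptor genes of the Vmn1r family among its 28). The windows differed in DDX55 peaks, from 0 on chromosome 12 and in the vomeronasal window to 15 in the Speer window.

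**Figure D2:**
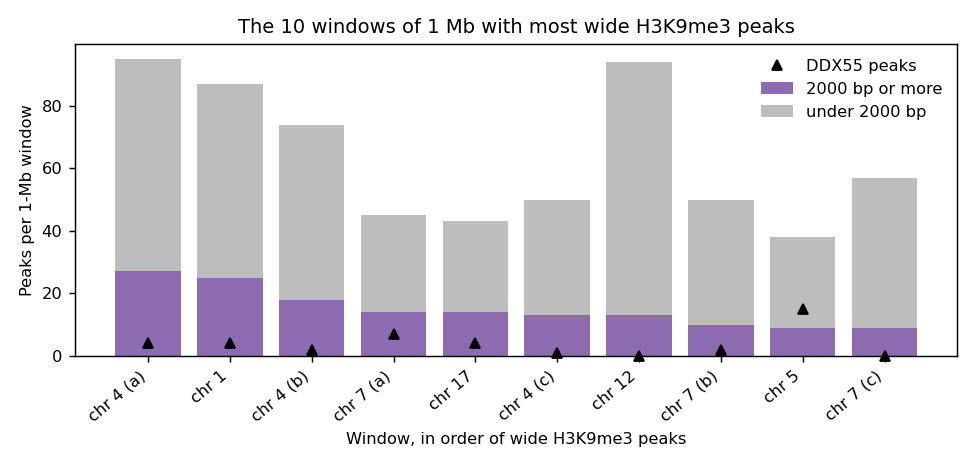
Peaks per window (y axis) in the 10 windows of 1 Mb with most wide H3K9me3 peaks (x axis, named by chromosome, in the order of the text), split into peaks of 2000 bp or more and under 2000 bp, with triangles for the number of DDX55 peaks. Wide peaks number 9 to 27 per window, and the Speer window of chromosome 5 has the most DDX55 peaks, 15.

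In Snhg14 (gene 52480, chromosome 7, 59272737 to 60450177) there were 14 wide peaks of 2040 to 6001 bp, with a median of 2625.5 bp, and 36 narrow peaks. Each of the 14 wide peaks overlapped at least 1 small nucleolar RNA gene, as did 17 of the 36 narrow peaks (47.2%). A longer interval meets such a gene more easily, and this was not allowed for. Together the wide peaks met 19 of the 206 small nucleolar RNA genes of the host gene, such as Snord116l1, Snord116l5, Snord116l9, Snord116l14 and Snord116l17. The narrow peaks together met 18 of the 206. DDX55 peaks met 3 of the 14, and R-loop and RNA polymerase II peaks 1 each. How similar the 206 genes are to each other was not measured here.

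Wide peaks lay in or near genes more often than narrow ones, although most were intergenic. By midpoint, 422 of 723 (58.4%, 54.7 to 62.0) were intergenic, against 71.4% of narrow peaks (70.7 to 72.1), a difference of -13.0 percentage points (95% Newcombe interval -16.7 to -9.42). Within 3000 bp of an end of a protein-coding gene lay 78 (10.8%, 8.62 to 13.3), against 3.71% of narrow peaks (3.41 to 4.02). Protein-coding gene bodies held 138 (19.1%, against 16.1%) and other annotated genes 85 (11.8%, against 8.77%). Intergenic wide peaks were a median of 99.6 kb from the nearest protein-coding gene, and intergenic narrow peaks 240.2 kb. Compared with only those narrow peaks that share a 1-Mb window with a wide peak, the intergenic share still differed by -10.9 points (-14.8 to -7.21).

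**Figure D3:**
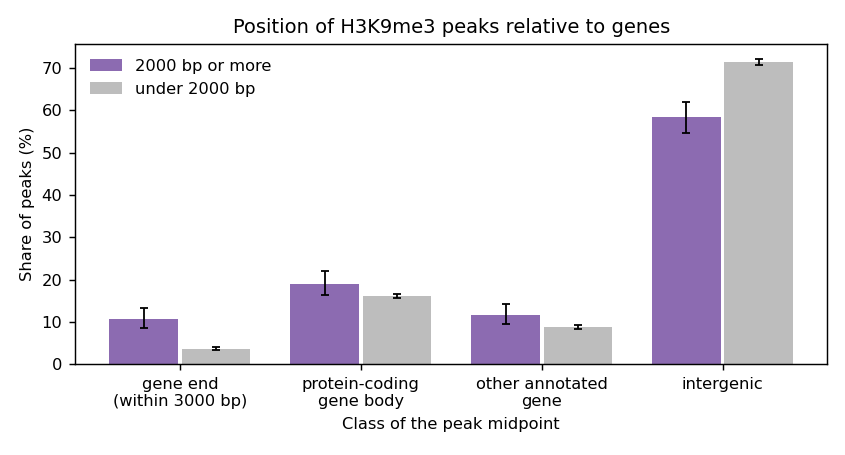
Share of wide (purple) and narrow (grey) H3K9me3 peaks (y axis, %) by the class of the peak midpoint (x axis), with exact 95% intervals. Wide peaks are at 10.8% at gene ends against 3.71%, and at 58.4% between genes against 71.4%.

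A wide peak overlapped the span of 156 of 21631 protein-coding genes (0.721%), from 200 wide peaks. Of these genes 125 carried 1 wide peak and 31 more than 1. Host genes were long, with a median of 50.7 kb against 17.3 kb for all protein-coding genes. A longer span meets any peak more easily, and this was not allowed for. Of the 156, 49 have only a clone or predicted symbol (Gm, Rik or LOC). An RNA polymerase II peak lay in 35 of the 156 (22.4%), and in 32.5% of all protein-coding genes. A host can share its peak with others: the 9 Ugt1a genes, which encode glucuronosyltransferases from alternative starts, all spanned 1 wide peak of 3036 bp (chromosome 1, 88211827 to 88214862).

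Among genes with an established symbol the most wide-peak sequence lay in zinc finger genes of chromosome 4 and in the Sp100 family. Zfp978 (gene 108168963, 147124882 to 147392027) carried 12 wide peaks over 38227 bp, and Zfp993 (146512849 to 146991471) carried 9 over 24681 bp. Rex2, a zinc finger gene, carried 3 over 11691 bp (13.4% of the gene), and Zfp992 3 over 7862 bp (38.5%). Sp110 carried 3 over 7815 bp, and Sp140, which overlaps it, 3 over 6991 bp. Sfi1, for a centrosomal protein, carried 2 over 6139 bp, Luzp2 2 over 5539 bp, the glypican gene Gpc6 2 over 5310 bp and the adhesion receptor gene Adgrl3 2 over 5067 bp. The last 3 are long genes (433.6, 1055 and 808.7 kb) and were covered by 1.28%, 0.504% and 0.627%. Predicted genes of the Sp100 cluster exceeded most of these, with 8 wide peaks over 29411 bp in Gm38510 and 4 over 17249 bp in C130026I21Rik, which they covered by 41.5%.

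Zinc finger genes had a wide peak in 29 of 422 cases (6.87%, 4.65 to 9.72), against 0.721% of all protein-coding genes. Narrow peaks were also more frequent in them, in 97 of the 422 (23.0%), against 5.16% of all protein-coding genes. On chromosome 4 a wide peak lay in 13 of 30 zinc finger genes, and on the other chromosomes in 16 of 392 (4.08%). The widest peaks over them were 4735 bp in Zfp978, 4436 bp in Rex2 (147017219 to 147021654), 4429 bp at Zfp433 on chromosome 10, 3988 bp at Zfp988, 3849 bp in Zfp992, 3572 bp in Zfp991, 3214 bp in Zfp993 and 3202 bp at Zfp534. The median of the widest peak per gene was 2859 bp, and 2773 bp over all 156 hosts. RNA polymerase II peaks lay in 8 of the 29, among them Zfp68 and Zfp810, and in 169 of all 422. Seen from the peaks, 6.78% of wide peaks (5.06 to 8.86) lay over a zinc finger gene and 1.24% of narrow peaks (1.07 to 1.43).

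Along 11 zinc finger genes outside chromosome 4, the wide peak lay towards the end of the gene, where the exon for the finger array usually is. The strand was known for 23 of the 29 host genes. In 5 of these (Zfp119a, Zfp534, Zfp874b, Zfp985 and Zfp988) the wide peak only reached over an end, with its midpoint outside the span, so no position was given. That left 18 genes. In all 11 of them on chromosomes other than 4 (Zfp2, Zfp68, Zfp97, Zfp110, Zfp180, Zfp433, Zfp606, Zfp712, Zfp810, Zfp932 and Zfp936) the midpoint of the wide peak lay past 80% of the span (80.4 to 98.7%, median 88.3%). Midpoints of narrow peaks in zinc finger genes on these chromosomes lay past 80% in 39 of 89 cases (43.8%, 33.3 to 54.7), and their median, 78.6%, was just under that bound. Outside chromosome 4 the strand was not known for Zfp286, Zfp369 and Zfp960. In Zfp286 (62751951 to 62789506, wide peak 62779270 to 62782061) the midpoint lay short of 80% from either end. The same held for Zfp369 (65277228 to 65304222, wide peak 65296160 to 65298478). In Zfp960 it lay past 80% from the lower coordinate. On chromosome 4 there were 18 pairs of a midpoint and a gene in 7 genes, spread from 0.398 to 93.8%, with 3 past 80%. Of the 18, 9 were in Zfp993, whose span overlaps that of Zfp981. The wide peaks of 2737 and 2143 bp lay in both genes and were counted in each. They were at 0.398 and 5.07% of Zfp993 and at 34.1 and 93.8% of Zfp981. Over zinc finger genes of all chromosomes, 62.1% of wide midpoints (42.3 to 79.3) and 66.2% of narrow midpoints (58.1 to 73.7) lay in the last 50% of the span, with medians of 79.5% and 76.3%. In other protein-coding genes 55.7% of wide-peak midpoints (46.1 to 64.9) and 51.3% of narrow ones lay in the last 50% of the span. The bound of 80% and the split by chromosome were chosen after the positions were seen.

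**Figure D4:**
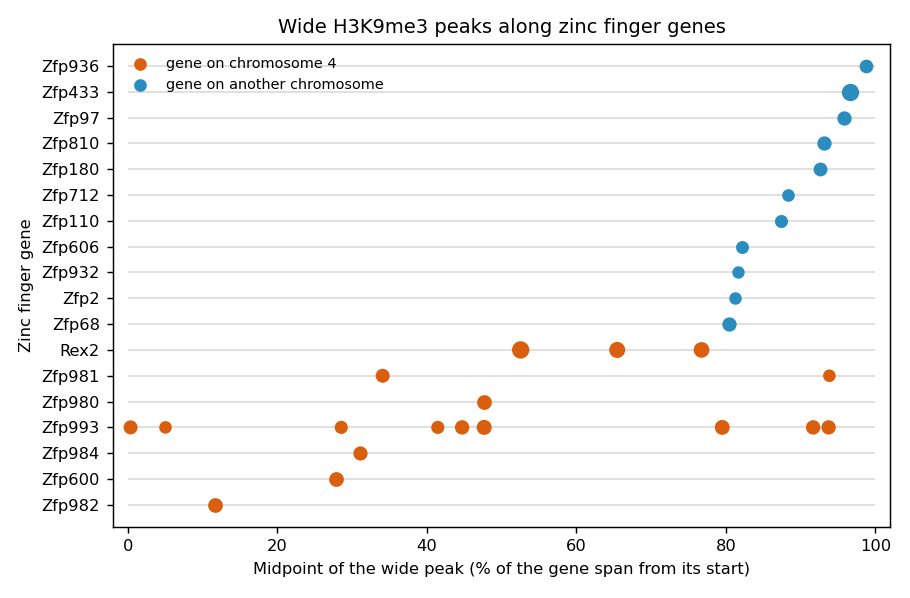
Midpoints of wide H3K9me3 peaks inside the span of zinc finger genes of known strand (y axis), as % of the gene span from its start (x axis), with larger points for wider peaks. Genes on chromosomes other than 4 (blue) have their wide peak between 80.4 and 98.7%, and genes on chromosome 4 (orange) between 0.398 and 93.8%. Zfp981 and Zfp993 overlap, and the peaks of 2737 and 2143 bp are drawn in both.

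Most other gene lists had no wide peak. None lay over any of 1106 olfactory receptor genes, 353 vomeronasal receptor genes, 57 clustered protocadherin genes, 123 genes of multicopy germline families, 29 killer lectin receptor genes, 9 Schlafen genes or 23 protein-coding imprinted genes. Against 0.721% of all protein-coding genes, the exact upper limit was 0.333% for the olfactory receptors. For the other lists it lay above that share, such as 1.04% for the vomeronasal receptors. A shorter span meets a peak less easily, and gene length was not allowed for in the shares of any gene list. Narrow peaks were present in some of these lists more often than in all protein-coding genes (5.16%), in 21 of 57 protocadherin genes (36.8%), 34 of 353 vomeronasal receptor genes (9.63%), 4 of 29 killer lectin receptor genes (13.8%) and 5 of 23 imprinted genes (21.7%). They were present less often in olfactory receptor genes, with 14 of 1106 (1.27%), in multicopy germline genes, with 5 of 123 (4.07%), and in 0 of the 9 Schlafen genes. With 3000 bp added to each end, 3 vomeronasal receptor genes had a wide peak (0.850%), against 0.846% of all protein-coding genes. Speer4c was the member with a wide peak among 10 Speer genes (3350 bp), Duxf3 among 4 Dux genes (2894 bp), and Sp110 and Sp140 among 4 genes of the Sp100 family (3249 and 2385 bp). Of 19 naive T cell genes 0 had a wide peak, while 17 (89.5%) had an RNA polymerase II peak in the span, against 32.5% of all protein-coding genes. As a check of the labelled cell type, the naive CD4 T cell markers Cd3d, Cd3e, Cd4, Lef1, Ccr7 and Il7r had an RNA polymerase II peak no more than 3000 bp from a gene end, and Tcf7 had none there. The same held for 1 of 4 B cell markers (Cd79a) and for 0 of 4 myeloid, 2 CD8 T, 2 NK and 2 erythroid markers. None of these markers had a wide H3K9me3 peak. Distance from a gene end is another measure than overlap with the span, and its share over all protein-coding genes is not given here.

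DDX55 peaks met 36 of 723 wide peaks (4.98%, 3.51 to 6.83) and 87 of 15438 narrow peaks (0.564%, 0.452 to 0.695), against 0.761% of all H3K9me3 peaks. The difference was 4.42 percentage points (3.05 to 6.26). A longer interval meets another list more easily, so a window of 300 bp centred on every peak, called its central 300 bp, was compared as well. The shortest narrow peak was 157 bp, and in peaks under 300 bp this window reached beyond the peak. DDX55 then met 10 wide peaks (1.38%, 0.665 to 2.53) and 70 narrow ones (0.453%, 0.354 to 0.573), against 0.495% of all, a difference of 0.930 points (0.288 to 2.08). As a share of the sequence covered, DDX55 peaks shared 1.505% of wide-peak bases and 0.379% of narrow-peak bases. Seen from the DDX55 list, 48 of its 210 peaks (22.9%) met a wide peak and 89 (42.4%) a narrow one. WT and DDX55 KO samples name the same DDX55 list. These peaks are thus places of signal in the DDX55 profiles and are not known to depend on DDX55.

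The 36 wide peaks that met DDX55 lay on 10 chromosomes, in 20 windows of 1 Mb. Chromosome 5 held 7 of the 36, chromosomes 1 and 8 held 6 each and chromosome 4 held 5. The 10 fullest windows held 17 of the 36, and without these windows the difference fell to 2.83 points (1.64 to 4.65). On chromosome 5 these wide peaks, of 2515 to 3979 bp, lay at or near Speer4c, Speer4d, Gm17019 and Gm10354 and included the 3350 bp peak at Speer4c with 2 DDX55 peaks. On chromosome 8, 4 of them lay between 55114167 and 55374219 over the predicted genes Gm51571, Gm51572, Gm46063 and Gm51573. On chromosome 4 DDX55 met wide peaks in Zfp600 (605 bp shared), Zfp978 (468 bp) and Zfp992 (97 bp). The 7372 bp peak of chromosome 10 held 4 DDX55 peaks of 422 to 510 bp, and the 6001 bp peak of Snhg14 held 3. Of the 48 pairs of a DDX55 and a wide peak, 39 had the DDX55 peak wholly inside, and the DDX55 midpoint lay in the inner 50% of the wide peak in 20 pairs, in the outer 50% in 26 and outside it in 2. The shared length had a median of 453 bp, 12.3% of the wide peak.

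R-loop peaks also met 36 wide peaks (4.98%, 3.51 to 6.83), against 226 narrow peaks (1.46%, 1.28 to 1.67) and 1.62% of all. The difference was 3.52 points (2.14 to 5.36), and 1.36 points (0.372 to 2.84) over the central 300 bp, where 20 wide (2.77%) and 217 narrow peaks (1.41%) were met, against 1.47% of all. Of the 1465 R-loop peaks 2.66% met a wide peak and 15.4% a narrow one. The first 500 kb of assembled sequence, which in mouse chromosomes is next to the centromere, held 33 wide peaks on 12 chromosomes (4.56% of wide peaks, 3.16 to 6.35) and 171 narrow ones (1.11%, 0.949 to 1.29). R-loop peaks met 13 of these 33, among them 4 of chromosome 17 and 3 of chromosomes 16 and 9 each. They met 11 of the 171 narrow peaks there. Without this stretch the difference was 1.93 points (0.805 to 3.55). The R-loop peak in the 13766 bp H3K9me3 peak of chromosome 9 was 13682 bp long and lay inside it. Near or in genes, R-loop peaks met wide peaks in Pak7 (431 bp), Gm13212 (475 bp), Gm51572 (983 bp) and Cyp2j8 (45 bp), and 1 in the immunoglobulin kappa locus (406 bp). R-loop midpoints lay in the inner 50% of the wide peak in 22 of 39 pairs and in the outer 50% in 13. Samples with and without RNase H name the same R-loop list, so these peaks are places of S9.6 signal and are not known to be sensitive to RNase H.

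RNA polymerase II peaks met 20 wide peaks (2.77%, 1.70 to 4.24) and 67 narrow ones (0.434%, 0.336 to 0.551), against 0.538% of all. The difference was 2.33 points (1.36 to 3.80). Over the central 300 bp it was 0.348 points with an interval that includes 0 (-0.0614 to 1.27), from 5 wide (0.692%) and 53 narrow peaks (0.343%), against 0.359% of all. Of the 10890 RNA polymerase II peaks 0.211% met a wide peak. Wholly inside the wide peak lay 22 of the 23 polymerase peaks, with a median shared length of 507 bp. Wide peaks with polymerase had a median width of 3659.5 bp and those without it 2441 bp. In genes with an established symbol polymerase met wide peaks in Duxf3 (988 bp), Sfi1 (674 bp) and Lyst (313 bp), a gene for a lysosomal trafficking regulator.

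By width, the shares were highest in the longest peaks for all 3 lists. For R-loop the share did not rise steadily with width. It was 2.29% from 500 to under 1000 bp (133 of 5800 peaks) and 0.738% from 1000 to under 1500 bp. Over the central 300 bp, peaks from 500 to under 1000 bp were also at 2.29%, above the 2.10% of peaks from 2000 to under 3000 bp. Of the 151 peaks of 3000 bp or more, 13.2% met DDX55 (8.28 to 19.7), 10.6% R-loop (6.18 to 16.6) and 7.95% RNA polymerase II (4.17 to 13.5). Of the 572 peaks from 2000 to under 3000 bp, 16, 20 and 8 did (the DDX55 share was 2.80%). Over the central 300 bp the peaks of 3000 bp or more were at 3.97% (1.47 to 8.45), 5.30% (2.31 to 10.2) and 1.99% (0.412 to 5.70). Those from 2000 to under 3000 bp were at 0.699%, 2.10% and 0.350%. For DDX55 and polymerase the latter values were within the intervals of both bins from 1000 to under 2000 bp (0.314 to 0.962 and 0.676 to 2.16 for DDX55), so over a window of fixed length no step at the threshold was seen for them.

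**Figure D5:**
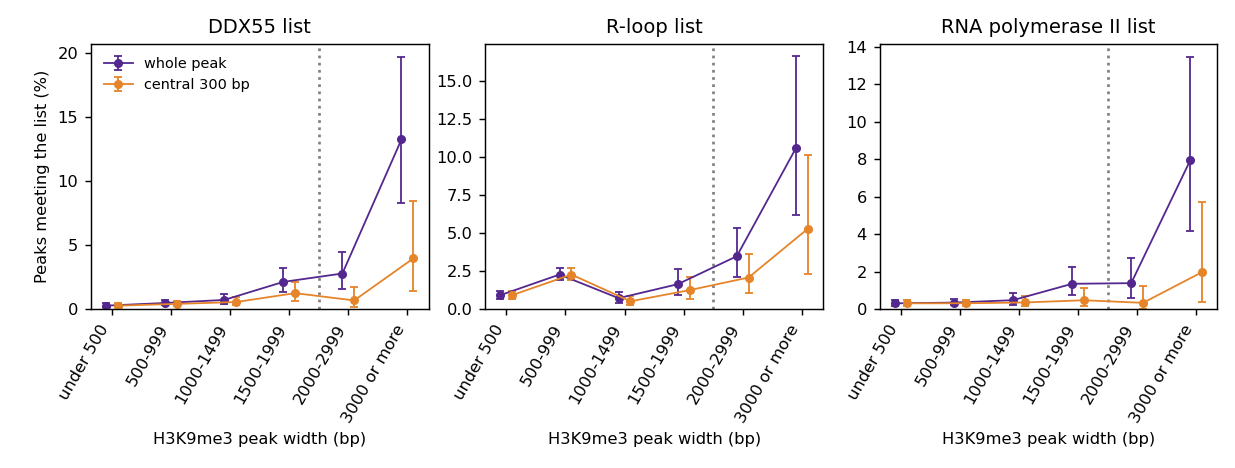
Share of H3K9me3 peaks meeting the DDX55, R-loop and RNA polymerase II lists (y axis, %, a scale of its own in each panel) by peak width (x axis, bp), for the whole peak (purple) and its central 300 bp (orange), with exact 95% intervals and a dotted line at 2000 bp. Peaks of 3000 bp or more reach 13.2%, 10.6% and 7.95% over the whole peak and 3.97%, 5.30% and 1.99% over the central 300 bp.

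Most wide peaks, 654 of 723 (90.5%), met none of the 3 other lists. This is not particular to wide peaks, although the same count was not made for narrow ones. Taken singly, DDX55, R-loop and polymerase met 0.564%, 1.46% and 0.434% of narrow peaks, against 4.98%, 4.98% and 2.77% of wide peaks. All 3 lists met 7 wide peaks. Of these 7, 2 lay at the start of chromosome 9 (13766 and 4748 bp) and 2 lay in the Duxf3 array on chromosome 10 (6957 and 2894 bp). The others were the 6001 bp peak of Snhg14, the 5672 bp peak over Rn18s-rs5 on chromosome 17 (39843034 to 39848705) and the 3174 bp peak at Gm51572 on chromosome 8. Over Rn18s-rs5 the DDX55 list shared 5046 bp, the R-loop list 5672 bp and the polymerase list 4605 bp of the wide peak. DDX55 alone met 22 wide peaks, R-loop alone 27 and polymerase alone 4, and DDX55 with polymerase but no R-loop 7. No repeat annotation or map of copy number was used, and the part of multicopy sequence in these shared peaks was not tested.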

How the data were processed

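The authors deposited 1 merged list per target for CUT&Tag of CD4+ naive T cells, with positions (start and end in bp) in another unit than counts or signal and no score. Per the submitters' processing notes reads were handled on mm10 with MACS3 3.0.0b1 among the tools, beside Bowtie2 2.5.0, fastp 0.12.4, ChIPseeker 1.30.3 and SAMtools 1.15.1. How peaks were thresholded and merged is not given in the sources used here. Depth is unknown, and the 2 HA samples and 1 IgG sample of the 23 were not used here.

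Genes and gene-start windows came from RefSeq tables of GRCm38.p6, whose chromosome coordinates equal those of mm10. Start positions are printed from 1. Overlap was at least 1 bp, computed in Python 3.11.15 with numpy 2.4.6 and pandas 2.3.3, and equal to bedtools 2.31.1 in counts of peaks met. The overlap code was tested on simulated data. Shares have exact Clopper-Pearson 95% intervals (scipy 1.17.1) and differences Newcombe intervals. No p-value was computed, since peaks are not replicates. Sequence identity is from global alignments in Biopython 1.88. A peak's class follows its midpoint, tried first for a gene end (within 3000 bp), then for a protein-coding gene, then for any other gene.

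The members, gene lists and alternatives were chosen with earlier results of these data known. Named were the 10 widest peaks, the 10 protein-coding genes with most wide-peak sequence (Gm and Rik symbols aside), the 5 fullest windows, up to 8 genes per list and the widest peaks that met another list. Other names, such as the next 5 windows and the Ugt1a and Snord116 genes, were chosen after their values were seen. The result for 1 marker gene is not reported here.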

Additional observations from a re-analysis of the deposited data

Results flagged for a closer look

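The comparisons used chromosomes 1 to 19 and X. Outside them lay another 95 H3K9me3 peaks of 2000 bp or more, a signal in sequence that no comparison used. Of these, 80 lay on unplaced and unlocalised sequences, where 30.5% of 262 peaks were that wide (longest 9631 bp). Chromosome Y held 13 among 313 peaks (4.15%), and the mitochondrial sequence held 2 among 2, the longer of 6422 bp. These lists have no control values to set beside them.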

How the results depend on the processing

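No paired analysis was possible because the lists merge all samples of a target and hold no value per sample, and for the same reason no replicate could be left out. For 8 results 44 alternatives were run. Among those for the overlaps with DDX55, R-loop and polymerase and for the intergenic share, none turned the direction of the difference. The other results are counts or a share of wide peaks, which have no direction to turn. The wide minus narrow difference, in percentage points, moved with the width threshold: at 1500 bp it was 2.87 for DDX55, 1.58 for R-loop and -8.69 for the intergenic share, and at 3000 bp it was 12.6 for DDX55, 9.06 for R-loop, 7.48 for polymerase and -21.3 for the intergenic share. Over the central 300 bp it was 0.930 for DDX55, 1.36 for R-loop and 0.348 for polymerase. With the wider 50% of the other list it was 2.93 for DDX55 and 0.504 for polymerase. It was 2.83 for DDX55 without the 10 fullest windows and, in an alternative chosen after seeing the data, 1.93 for R-loop without the first 500 kb. Thresholds of 1500 and 3000 bp gave 1749 and 151 wide peaks in place of 723, and 1500 bp gave 49 zinc finger genes in place of 29. The 10 fullest windows held 25.4% of wide peaks with windows of 2 Mb. The cause of these moves was not tested, except that a lower threshold takes in more peaks and a central window is shorter. With no depth in the files, weak or missing peaks cannot be told from shallow sequencing.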
